A study of Mus musculus with 12 samples.

Results

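Integrins and laminins were followed through 4 groups of cultured 3T3-L1 adipocytes, which are mouse fibroblasts of an established line turned into fat cells. The members were all probe sets whose single annotated symbol starts with Itga, Itgb, Lama, Lamb or Lamc followed by digits or letters, and they came to 37 of the 15267 genes tested, with 1 probe set each. They comprised 10 laminin chains, 15 integrin alpha chains, 7 integrin beta chains and 5 genes whose symbols match the pattern although their products are not integrin chains (Itgb1bp1, Itgb1bp2, Itgb3bp, Itgbl1 and Itgb2l). Of the 37 members, 12 had a mean level in the lowest 33% of genes, where an array separates signal poorly from background.

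The study asked what the cofactor TBLR1, encoded by Tbl1xr1, does in the release of lipid from fat cells. All cells had received adenovirus on day 9 of differentiation at a multiplicity of infection of 500, which carried either the control shRNA or the shRNA directed at TBLR1, and every group had 3 arrays. After 3 days all cells were kept for 2 h in Krebs-Ringer buffer, after which they had either no treatment or 3 h of isoproterenol (10 µM), an agonist of β-adrenergic receptors. The 4 groups were therefore control shRNA untreated, TBLR1 shRNA untreated, control shRNA with isoproterenol and TBLR1 shRNA with isoproterenol, so that the controls carried virus too and no group was without it. The cells are a line grown without the other cells of fat tissue, and nothing in the labels tells whether replicates are separate cultures. The p-values thus reflect only how these samples vary, a spread that may be technical.

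Laminins are cross-shaped glycoproteins of 1 alpha, 1 beta and 1 gamma chain that form the sheet-like network of the basement membrane, a layer that surrounds each fat cell. Integrins are receptors of 1 alpha and 1 beta chain that bind laminins, collagens or fibronectin outside the cell and couple to the actin cytoskeleton inside it. The products of Lama2 and Lama4 each assemble with those of Lamb1 and Lamc1, and the integrin alpha chains Itga3, Itga6 and Itga7 pair with Itgb1 to form laminin receptors. During the conversion of preadipocytes into fat cells a fibronectin-rich matrix gives way to a laminin-rich one, and Itga5 gives way to Itga6.

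Every level below is a log2 expression level of 1 probe set, every difference is on the log2 scale, and called means an adjusted p under 0.05 in a limma model of all 12 arrays, adjusted over all 15267 genes. The targeted gene, Tbl1xr1, was at 57.7% of its control level in untreated cells and at 54.9% with isoproterenol, and its 6 samples with TBLR1 shRNA lay below its 6 control samples. Within each group the arrays correlated, across genes, at 0.998 to 0.999. The adipocyte label was checked on 12 measured fat cell markers, of which 1 lay in the lowest 33% of genes. Their mean log2 level was 12.02 to 12.08 in the control shRNA samples and 11.60 to 11.66 in the TBLR1 shRNA samples, and 9 of the 12 fell with TBLR1 shRNA in untreated cells and 10 with isoproterenol. When the arrays were centred on bacterial control RNAs, a scaling described below, 7 and 6 of the 12 fell. Of 13 measured markers of preadipocytes and fibroblasts, 5 rose and 5 fell in each shRNA comparison without that centring, or 76.9% called in each. Those that rose were Acta2, Tagln, Thy1, Pdgfrb and Ccn5, and those that fell in both included Col1a1, Col3a1, Dlk1 and S100a4. The even split is thus not an absence of change. In such bulk samples fewer cells of a type and less RNA per cell cannot be told apart, and the part of these markers in the results below was not tested.

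The first question was how depletion of TBLR1 changed the members. The laminin chains Lama2, Lama4, Lamb1 and Lamc1 fell with TBLR1 shRNA in both treatments. So did the integrin chains Itga1, Itga2b, Itga6, Itga7 and Itgae, and also Itgbl1 and Itgb1bp1. The fibronectin receptor chain Itga5 rose in both. The remaining laminin chains were not called. In untreated cells 12 members fell and 1 rose, which is 35.1% of the 37 against 37.7% of all genes. With isoproterenol 13 fell and 2 rose, or 40.5% against 41.7% of all genes. The total called among the members was thus near the background. By direction, 20.0% of all genes fell and 17.7% rose in untreated cells, and 22.3% fell and 19.5% rose with isoproterenol. The 2 shRNA comparisons share no array, but both use 1 spread per gene estimated from all 12 arrays, so their calls are not independent. In both, the same 11 members fell and the same 1 rose. Thus 12 of the 13 members called in untreated cells and 12 of the 15 called with isoproterenol were called in the same direction in both. The share of all genes called in both is not given here, so this overlap has no background to be set against. The samples of the 2 shRNAs did not overlap for 13 of the 37 members in untreated cells (46.9% of all genes) and for 18 with isoproterenol (49.1%). The median difference of the 37 members was -0.04 in each comparison, against -0.01 for all genes.

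These values are relative to the bulk of genes, because the arrays had been given equal distributions. Centring each array on 18 probe sets for bacterial control RNAs instead adds 0.07 in untreated cells and 0.11 with isoproterenol to every TBLR1 shRNA difference, which turns the members' median to 0.03 and 0.07. Over all genes the split then becomes 3321 higher and 1666 lower, from 2701 and 3055, in untreated cells, and 5113 and 1701, from 2975 and 3397, with isoproterenol. Of the members, 9 then fell and 2 rose in untreated cells, and 10 fell and 6 rose with isoproterenol.

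**Figure D1:**
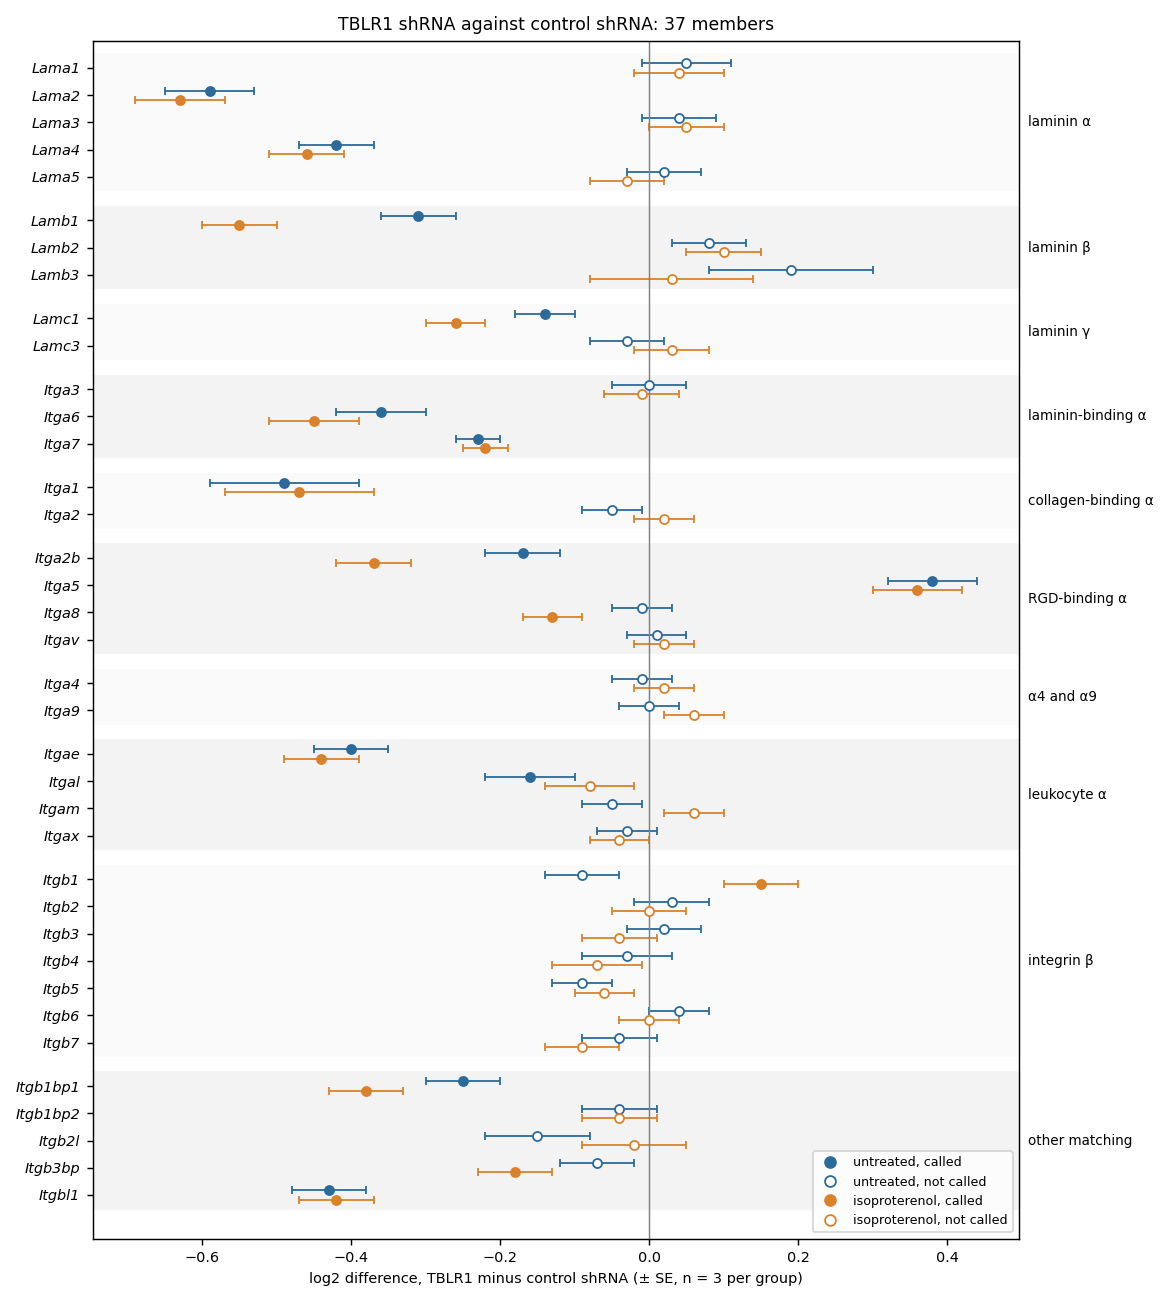
Log2 difference between TBLR1 and control shRNA (horizontal axis) for the 37 members grouped by role (vertical axis), in untreated cells (blue) and with isoproterenol (orange). Points are estimates, bars are SE with 3 samples per group, and filled points are called. Lama2, Lama4, Lamb1, Itga6 and Itga1 lie to the left in both comparisons and Itga5 lies to the right.

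Among the laminin chains, 4 of 10 fell in each comparison and 0 rose, also at an unadjusted p under 0.05, with a median of 0.00 in both. The share called, 40.0%, was near the 37.7% and 41.7% of all genes. By direction, 20.0% and 22.3% of all genes fell. The 4 were Lama2 and Lama4 and their partner chains Lamb1 and Lamc1. Lama2, whose product is the main laminin alpha chain of muscle and is also made by other mesenchymal cells, changed most. In untreated cells Lama2 read 7.62, 7.76 and 7.67 with control shRNA and 7.10, 7.04 and 7.16 with TBLR1 shRNA. With isoproterenol its values were 7.78, 7.88 and 7.83 against 7.30, 7.24 and 7.08. All 6 TBLR1 shRNA samples lay below all 6 control samples. The differences were -0.59 ± 0.06 (SE, n = 3 per group, adjusted p = 5.42e-07) and -0.63 ± 0.06 (adjusted p = 1.89e-07), which put Lama2 at 66.6% and 64.8% of its control level.

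Lama4 encodes an alpha chain of fat cell and vessel basement membranes. Its untreated values were 8.84, 8.87 and 8.75 with control shRNA and 8.42, 8.43 and 8.35 with TBLR1 shRNA. Under isoproterenol they were 8.86, 8.78 and 8.79 against 8.24, 8.48 and 8.34, again with no overlap between the shRNAs. Lama4 fell by 0.42 ± 0.05 (SE, adjusted p = 1.19e-05) and by 0.46 ± 0.05 (adjusted p = 3.45e-06).

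Lamb1 encodes the beta chain that most laminins of mesenchymal cells contain. It read 9.09, 9.00 and 8.98 with control shRNA and 8.79, 8.66 and 8.67 with TBLR1 shRNA in untreated cells. With isoproterenol the values were 9.58, 9.68 and 9.61 against 9.12, 9.03 and 9.06. The shRNA groups did not overlap within either treatment, and the TBLR1 shRNA samples given isoproterenol lay in or near the range of the untreated controls. Lamb1 fell by 0.31 ± 0.05 (SE, adjusted p = 5.71e-05) in untreated cells and by 0.55 ± 0.05 (adjusted p = 1.05e-07) with isoproterenol.

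Lamc1 encodes the gamma chain shared by most laminins and had the smallest fall of the 4. Its levels were 7.93, 7.88 and 7.82 with control and 7.75, 7.76 and 7.69 with TBLR1 shRNA in untreated cells, and 7.96, 7.93 and 7.85 against 7.66, 7.66 and 7.62 with isoproterenol. The groups did not overlap in either treatment. The differences were -0.14 ± 0.04 (SE, adjusted p = 0.0125) and -0.26 ± 0.04 (adjusted p = 7.75e-05). In untreated cells the call was lost without control replicate 1 (adjusted p = 0.0648), without TBLR1 replicate 3 (0.059) and with centring on the bacterial controls (-0.07, adjusted p = 0.391), which left -0.15 with isoproterenol (0.0399).

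The other 6 laminin chains were not called in any comparison. They were Lama1, Lama3, Lama5, Lamb2, Lamb3 and Lamc3, which encode chains of embryonic, epithelial, vascular and neuromuscular basement membranes. Lamb2, whose product can take the place of that of Lamb1, differed by 0.08 ± 0.05 and 0.10 ± 0.05 (adjusted p = 0.246 and 0.11). Lamb3 had the widest interval, 0.19 with 95% limits of -0.03 and 0.42 in untreated cells. Its control samples read 7.19, 7.21 and 7.65 and its TBLR1 samples 7.53, 7.53 and 7.57, so that control replicate 3 lay above all 3 TBLR1 samples. Without that replicate the difference in Lamb3 was called (adjusted p = 0.00495).

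The sequences before the start sites of 3 members are shown because Lama2 fell most, Lamb1 responded most to isoproterenol and Itga5 rose. Each is the 250 bases that precede a RefSeq transcript start in the mouse build GRCm38.p6, on the strand of the gene, at chr10:27616943-27617192 (minus strand) for Lama2, chr12:31265043-31265292 (plus strand) for Lamb1 and chr15:103366792-103367041 (minus strand) for Itga5. Capitals mark a match to the CArG box, the binding site of serum response factor, in Lama2, and matches to the GC box in Lamb1 and Itga5.
Lama2: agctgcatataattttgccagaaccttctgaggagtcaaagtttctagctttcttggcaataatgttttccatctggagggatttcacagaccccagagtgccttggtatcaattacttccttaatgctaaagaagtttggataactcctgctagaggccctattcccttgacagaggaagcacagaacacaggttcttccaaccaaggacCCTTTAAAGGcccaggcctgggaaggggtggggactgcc
Lamb1: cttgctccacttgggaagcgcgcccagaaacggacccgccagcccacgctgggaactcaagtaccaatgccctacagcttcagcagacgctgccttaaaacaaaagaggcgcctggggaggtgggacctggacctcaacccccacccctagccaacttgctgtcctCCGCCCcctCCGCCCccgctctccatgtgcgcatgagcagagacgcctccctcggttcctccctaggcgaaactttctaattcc
Itga5: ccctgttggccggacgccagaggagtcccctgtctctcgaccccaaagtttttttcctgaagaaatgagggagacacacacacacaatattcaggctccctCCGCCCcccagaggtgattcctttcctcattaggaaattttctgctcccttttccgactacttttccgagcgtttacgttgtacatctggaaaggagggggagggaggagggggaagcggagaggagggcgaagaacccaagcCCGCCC
The CArG match of Lama2 lies 39 to 30 bases before the start and reads the same on both strands. In Lamb1 the GC boxes, GGGCGG, lie on the opposite strand at 84 to 79 and 75 to 70 bases before the start, and in Itga5 at 149 to 144 and 6 to 1. The motifs were chosen after the expression values were seen and were searched on both strands. Windows were held for 24 of the 37 members, 27 windows in all. Of these, 10 held a GC box (32.7% of 32851 windows of all genes), 2 a CArG box (1.47%) and 1 an AP-1 site, TGANTCA (6.75%). The cAMP response element, TGACG directly followed by TCA, was in 0 of the 27 and in 1.55% of all windows, and its half-site TGACG, which the whole element contains, was in 4 and in 17.8%. The TATA box, TATAAA, was in 0 of the 27 and in 12.4% of all. The CArG boxes were in Itgb6 and Lama2. The GC boxes were in Itga3, Itga4, Itga5, Itgam, Itgb1, Itgb5, Itgbl1, Lama5 and Lamb1, and the AP-1 site was in Itgax. Of these members Itgb6, Itga3, Itga4, Itgam, Itgb5, Lama5 and Itgax were not called in any comparison. The arrays did not measure binding to any of these sites.

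Some integrin chains that bind laminin fell alongside. Of the 3 alpha chains of this kind Itga6 and Itga7 fell in both comparisons, and Itga3 differed by 0.00 ± 0.05 and -0.01 ± 0.05. That is 66.7% called in each, against 37.7% and 41.7% of all genes, and 3 chains are too few to compare shares. Itga6 forms laminin receptors with Itgb1 or Itgb4. It read 9.91, 9.85 and 9.98 with control and 9.60, 9.51 and 9.55 with TBLR1 shRNA in untreated cells. With isoproterenol it read 9.82, 9.97 and 9.88 against 9.58, 9.37 and 9.35. No TBLR1 shRNA sample reached the lowest control sample. Itga6 fell by 0.36 ± 0.06 (SE, adjusted p = 0.00012) and by 0.45 ± 0.06 (adjusted p = 1.05e-05).

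Itga7, the laminin receptor chain best known from muscle, varied little within groups. Its untreated values were 8.77, 8.77 and 8.79 with control and 8.54, 8.55 and 8.53 with TBLR1 shRNA. Isoproterenol gave 8.99, 9.03 and 9.00 against 8.78, 8.79 and 8.80. The shRNA groups were apart in both treatments, and the TBLR1 samples with isoproterenol lay at the level of the untreated controls. Itga7 fell by 0.23 ± 0.03 (SE, adjusted p = 4.01e-05) and by 0.22 ± 0.03 (adjusted p = 6.63e-05). With centring on the bacterial controls the second difference was -0.11 (adjusted p = 0.157). Itga7 overlaps Mettl7b in the RefSeq table, and Mettl7b moved the same way, by -0.51 and -0.60 with TBLR1 shRNA and by 0.32 and 0.23 with isoproterenol. Whether a probe set of 1 gene of such a pair also reads the other was not tested.

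The collagen receptor chain Itga1 fell too, with the widest spread of the members that fell. It read 7.92, 7.91 and 8.09 with control and 7.58, 7.32 and 7.56 with TBLR1 shRNA in untreated cells, and 7.74, 8.11 and 8.09 against 7.64, 7.52 and 7.36 with isoproterenol. Control replicate 1 with isoproterenol was the lowest control sample, and the groups did not overlap in either treatment. The differences were -0.49 ± 0.10 (SE, adjusted p = 0.000621) and -0.47 ± 0.10 (adjusted p = 0.000675). Itga1 overlaps Pelo, which rose by 0.19 ± 0.05 in untreated cells (adjusted p = 0.00409) and differed by 0.03 ± 0.05 with isoproterenol (adjusted p = 0.645). The other collagen receptor chain, Itga2, differed by -0.05 ± 0.04 and 0.02 ± 0.04 and was in the lowest 33% of genes.

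Itga5, the alpha chain of the main fibronectin receptor, was the member that rose in both comparisons. In untreated cells it read 6.77, 6.67 and 6.71 with control and 7.18, 7.05 and 7.07 with TBLR1 shRNA. With isoproterenol the values were 6.86, 6.80 and 6.86 against 7.20, 7.32 and 7.08. All 6 TBLR1 samples exceeded all 6 controls. Itga5 rose by 0.38 ± 0.06 (SE, adjusted p = 4.28e-05) and 0.36 ± 0.06 (adjusted p = 5.68e-05), or 1.30 and 1.28-fold. Its ligand Fn1, looked up after these values were seen, differed by -0.01 ± 0.07 and 0.01 ± 0.07.

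The other chains that bind the RGD peptide motif of matrix proteins went otherwise. Itga2b, the fibrinogen receptor chain of platelets, read 8.01, 7.95 and 7.92 with control and 7.88, 7.73 and 7.75 with TBLR1 shRNA in untreated cells. With isoproterenol it read 8.21, 8.28 and 8.24 against 7.92, 7.89 and 7.79. The groups were separate in both treatments. Itga2b fell by 0.17 ± 0.05 (SE, adjusted p = 0.00926) and by 0.37 ± 0.05 (adjusted p = 7.59e-06). The first call was lost without TBLR1 replicate 2 (adjusted p = 0.0507) and with centring on the bacterial controls (0.246). Of 6 measured platelet markers 0 were called in either comparison, and 1 was lower at an unadjusted p under 0.05 in each. Itgav, the vitronectin receptor chain, differed by 0.01 ± 0.04 and 0.02 ± 0.04. Itga8, a chain known from kidney development, was in the lowest 33% of genes and fell with isoproterenol by 0.13 ± 0.04 (adjusted p = 0.00968) and differed by -0.01 ± 0.04 in untreated cells. That call did not hold with centring on the bacterial controls (-0.02, adjusted p = 0.801).

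Of the 4 alpha chains typical of leukocytes, Itgae fell in both comparisons. Itgae, which with Itgb7 binds E-cadherin on epithelial cells, read 7.44, 7.27 and 7.42 with control and 6.93, 6.93 and 7.08 with TBLR1 shRNA in untreated cells. With isoproterenol it read 7.25, 7.32 and 7.27 against 6.92, 6.81 and 6.79. The TBLR1 samples lay below the controls in both treatments. Its differences were -0.40 ± 0.05 (SE, adjusted p = 2.12e-05) and -0.44 ± 0.05 (adjusted p = 5.57e-06). Haspin, which overlaps Itgae, differed by 0.09 ± 0.05 and 0.04 ± 0.05 and was not called. Itgal fell in untreated cells by 0.16 ± 0.06 (adjusted p = 0.0458), a call lost under 13 of the 21 other settings tried. Itgam and Itgax, chains of macrophages and dendritic cells, were not called, at -0.05 and -0.03 in untreated cells and 0.06 and -0.04 with isoproterenol. The markers of lymphocytes (8 measured) had 0 called in either comparison, with 0 and 1 at an unadjusted p under 0.05, but with centring on the bacterial controls 0 and 3 of the 8 rose. Of 15 macrophage markers measured, 12 were in the lowest 33% of genes, 3 rose and 1 fell in each comparison (4 and 0 with that centring), and their mean log2 level ran from 6.33 to 6.41 in the control samples and from 6.41 to 6.47 in the TBLR1 samples. Their part in these values was not tested. Itga4 and Itga9, which bind fibronectin, the vascular adhesion molecule VCAM1 and tenascin, differed by at most 0.06 and were not called.

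**Figure D2:**
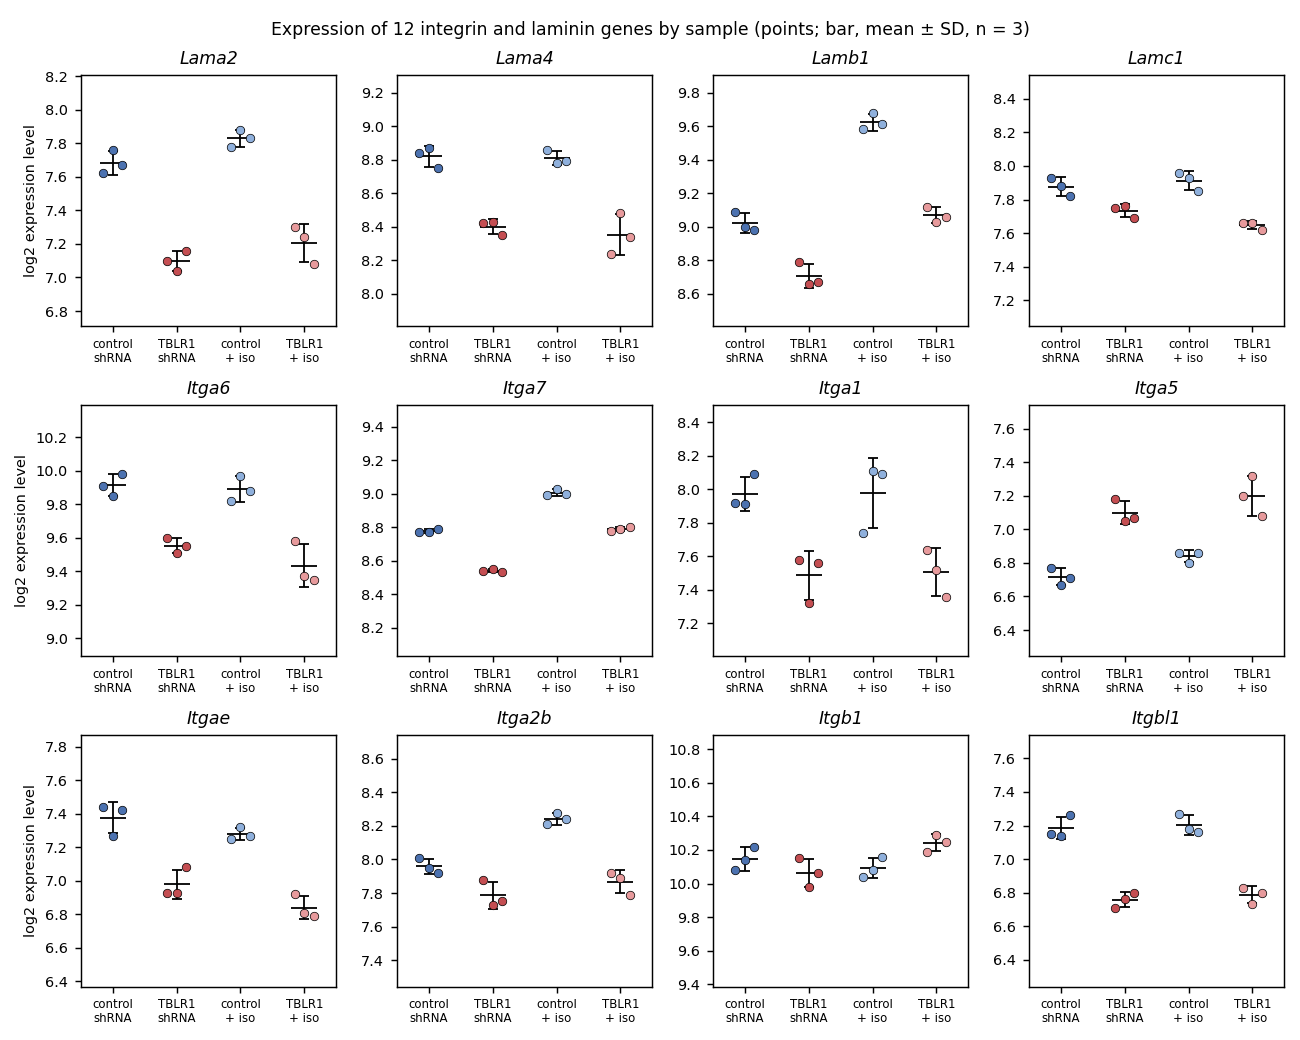
Log2 expression level (vertical axis, each panel spanning the same range) of 12 members in the 4 groups (horizontal axis, iso for isoproterenol). Points are single samples and the bars give mean ± SD of 3 samples. Lama2, Lama4, Itga6 and Itgbl1 sit lower in both TBLR1 shRNA groups, Itga5 sits higher, and Lamb1 and Itga7 also step up with isoproterenol.

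The integrin beta chains moved little. Of the 7, 0 were called in untreated cells, also at an unadjusted p under 0.05, against 37.7% of all genes called. Their differences ran from -0.09 to 0.04. The share called with isoproterenol was 14.3%, against 41.7% of all genes. Itgb2 and Itgb6 were in the lowest 33% of genes. With isoproterenol Itgb1, the common partner of the laminin, collagen and fibronectin receptor chains, was higher with TBLR1 shRNA. It read 10.04, 10.08 and 10.16 with control and 10.19, 10.29 and 10.25 with TBLR1 shRNA, against 10.08, 10.14 and 10.22 and 10.15, 9.98 and 10.06 without treatment. The groups were apart with isoproterenol and overlapped without it. Its differences were 0.15 ± 0.05 (SE, adjusted p = 0.027) and, untreated, -0.09 ± 0.05 (adjusted p = 0.216). The call was lost without control replicate 1, control replicate 2, TBLR1 replicate 2 or TBLR1 replicate 3 of the isoproterenol groups (adjusted p = 0.108, 0.0707, 0.0998 and 0.0666). With centring on the bacterial controls the difference was 0.26 (adjusted p = 0.00154). Itgb5, a vitronectin receptor chain, differed by -0.09 ± 0.04 and -0.06 ± 0.04. Itgb4, of hemidesmosomes, Itgb3, of platelets and bone cells, Itgb6, of epithelia, and the leukocyte chains Itgb2 and Itgb7 were not called.

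Of the 5 members that are not integrin chains, Itgbl1 and Itgb1bp1 fell in both comparisons. Itgbl1, a secreted protein with repeats like those of integrin beta chains, read 7.15, 7.14 and 7.26 with control and 6.71, 6.76 and 6.80 with TBLR1 shRNA in untreated cells. With isoproterenol its values were 7.27, 7.18 and 7.16 against 6.83, 6.73 and 6.80, and no TBLR1 sample reached a control. Itgbl1 fell by 0.43 ± 0.05 (SE, adjusted p = 1.97e-06) and 0.42 ± 0.05 (adjusted p = 1.72e-06). Itgb1bp1 encodes ICAP1, a protein that binds the tail of the Itgb1 chain and holds it inactive. It read 10.04, 10.01 and 9.88 with control and 9.68, 9.78 and 9.73 with TBLR1 shRNA, and with isoproterenol 9.99, 10.13 and 10.02 against 9.68, 9.67 and 9.65. The groups were separate, with differences of -0.25 ± 0.05 (SE, adjusted p = 0.000836) and -0.38 ± 0.05 (adjusted p = 1.01e-05). Itgb1bp1 overlaps Cpsf3, which fell by 0.13 ± 0.04 in untreated cells (adjusted p = 0.0158) and differed by -0.05 ± 0.04 with isoproterenol (adjusted p = 0.329), and Asap2, which was not called in either comparison. Itgb3bp, a centromere protein, fell with isoproterenol by 0.18 ± 0.05 (adjusted p = 0.00797), differed by -0.07 ± 0.05 in untreated cells, and was not called with centring on the bacterial controls (-0.07, adjusted p = 0.408). Itgb1bp2, a chaperone of striated muscle, and Itgb2l were not called.

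The next question was how isoproterenol changed the members. With control shRNA 3 members rose and 0 fell (0 also at an unadjusted p under 0.05), which is 8.11% of the 37 against 18.6% of all genes (7.7% higher and 10.9% lower). With TBLR1 shRNA 3 rose and 0 fell (1 lower at an unadjusted p under 0.05), or 8.11% against 8.86% of all genes (4.09% higher and 4.78% lower). Lamb1 and Itga7 rose with both shRNAs, in groups that share no array but were tested with the same spread per gene. The median difference of the members was 0.02 in each, against 0.00 over all genes. Treated and untreated samples did not overlap for 7 members with control shRNA (33.2% of all genes) and for 11 with TBLR1 shRNA (25.2%).

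Lamb1 responded most, with per-sample values as given above. It rose by 0.60 ± 0.05 (SE, adjusted p = 1.83e-07), or 1.52-fold, with control shRNA and by 0.37 ± 0.05 (adjusted p = 0.000129), or 1.29-fold, with TBLR1 shRNA. The treated and untreated samples did not overlap with either shRNA. Its partner chains were not called, with 0.15 ± 0.06 and 0.11 ± 0.06 for Lama2, -0.01 ± 0.05 and -0.05 ± 0.05 for Lama4, and 0.03 ± 0.04 and -0.09 ± 0.04 for Lamc1. Without TBLR1 isoproterenol replicate 3 the Lama2 response with control shRNA was called (adjusted p = 0.0489).

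Itga7 rose by 0.23 ± 0.03 (SE, adjusted p = 0.000144) and 0.25 ± 0.03 (adjusted p = 0.000246), with no overlap in either shRNA. Itga2b rose with control shRNA by 0.29 ± 0.05 (adjusted p = 0.000419) and differed by 0.08 ± 0.05 (adjusted p = 0.352) with TBLR1 shRNA, where treated and untreated samples overlapped. Itgb1 was higher with isoproterenol in TBLR1 shRNA cells, by 0.18 ± 0.05 (adjusted p = 0.0379), and differed by -0.06 ± 0.05 with control shRNA. The Itgb1 call was lost under 7 of the 21 other settings, with adjusted p from 0.0504 to 0.18. These were centring on the bacterial controls, the fit of only these 2 groups, and the fits without control untreated replicate 2, TBLR1 untreated replicate 2 or 3, or TBLR1 isoproterenol replicate 2 or 3. Itga6 differed by -0.12 ± 0.06 in TBLR1 shRNA cells, and was called without TBLR1 isoproterenol replicate 1 (adjusted p = 0.0356).

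**Figure D3:**
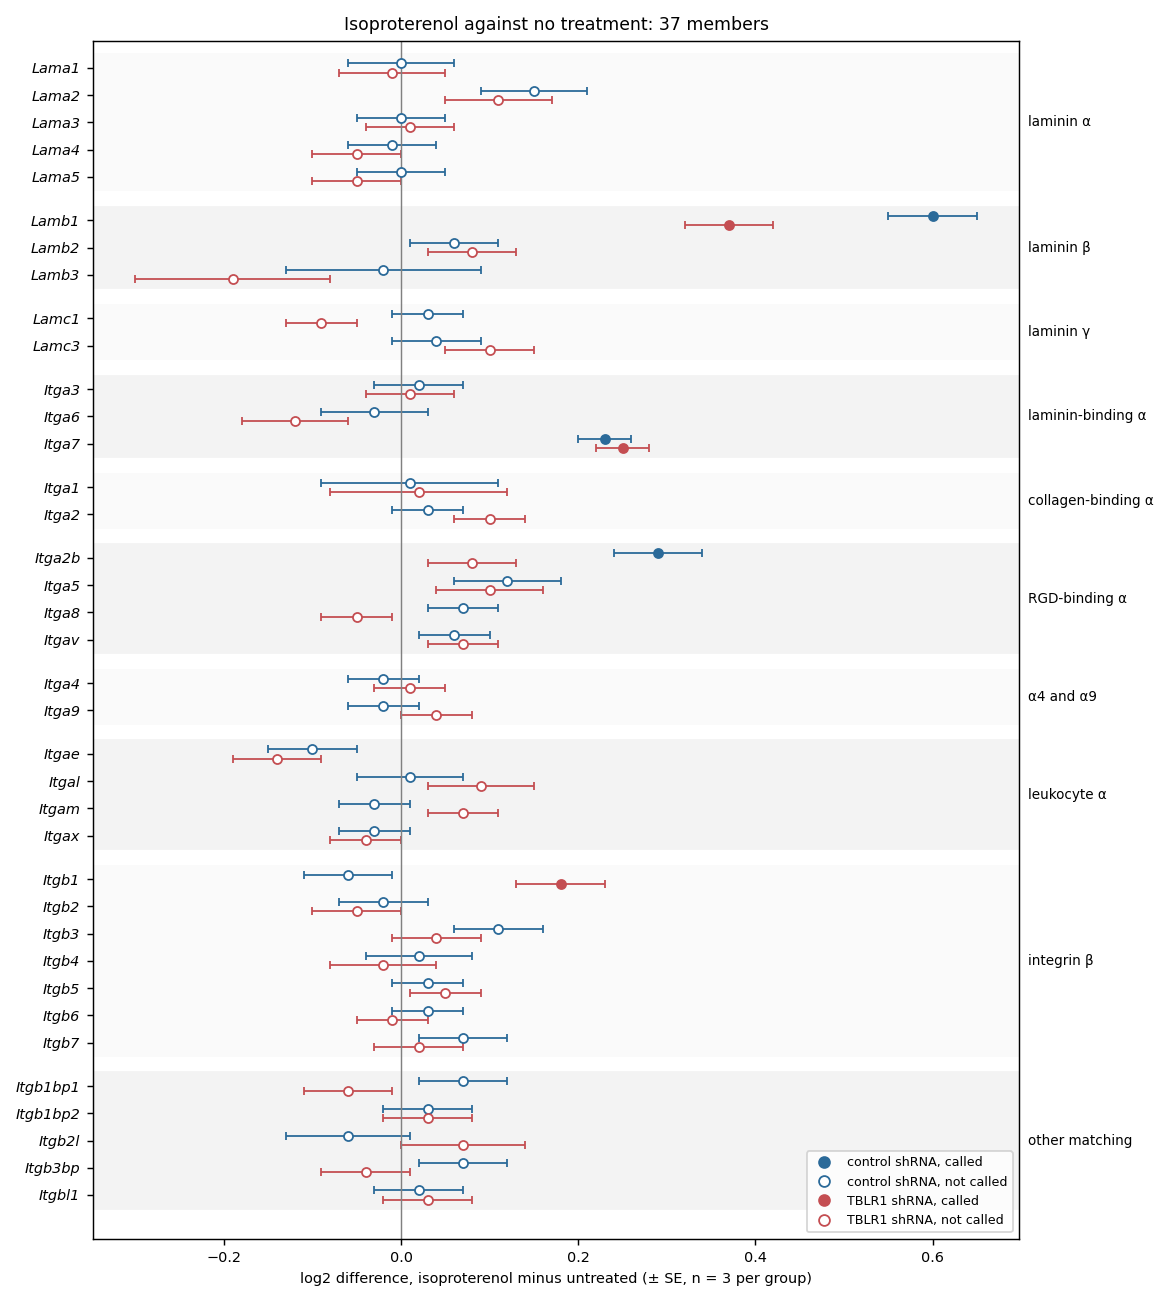
Log2 difference between isoproterenol and no treatment (horizontal axis) for the 37 members grouped by role (vertical axis), with control shRNA (blue) and TBLR1 shRNA (red). Points are estimates, bars are SE with 3 samples per group, and filled points are called. Lamb1 stands out at 0.60 and 0.37, followed by Itga2b with control shRNA and by Itga7 with both.

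Whether the isoproterenol response itself depended on the shRNA was tested as the difference between the 2 responses. Of the 37 members 0 were called in limma, against 2.4% of all genes (1.07% higher and 1.33% lower), and at an unadjusted p under 0.05 there were 1 higher and 3 lower. The nearest was Lamb1, whose response was smaller with TBLR1 shRNA by 0.24 (95% limits of the difference -0.38 and -0.09, adjusted p = 0.0886). Itgb1 had 0.24 (limits 0.08 and 0.40, adjusted p = 0.117) and Itga2b -0.20 (limits -0.35 and -0.06, adjusted p = 0.154). For Itga7 the responses differed by 0.02 (limits -0.09 and 0.12). The calls of Itga2b and Itgb1 with only 1 of the shRNAs are thus not shown to differ between the shRNAs.

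Genes that work with the members were described through 4 lists chosen with earlier results of these data known, 104 measured genes of 115 listed. The adhesion machinery, proteins that link integrins to actin and regulate them, is the first list. Of 38 measured genes 20 rose and 6 fell in untreated cells (median 0.15) and 20 rose and 5 fell with isoproterenol (median 0.13). With centring on the bacterial controls these counts were 21 and 4, and 25 and 4. Without that centring 68.4% and 65.8% of the list were called, against 37.7% and 41.7% of all genes. Of the 10178 genes left when those of lowest level were removed, 2644 rose and 3066 fell in untreated cells. With isoproterenol 2868 of them rose and 3287 fell. The list was not matched to these genes by level, so its shares are not shown to exceed those of genes of similar level. By direction, 17.7% and 19.5% of all genes rose, and 20.0% and 22.3% fell. Flna, the actin crosslinker filamin A, rose by 0.59 ± 0.07 and 0.65 ± 0.07 (adjusted p = 3.92e-06 and 9.75e-07). Pxn, the adaptor paxillin, rose by 0.54 ± 0.05 and 0.50 ± 0.05, and Dab2, an adaptor for integrin uptake, by 0.54 ± 0.06 and 0.73 ± 0.06. Lims1, a partner of integrin-linked kinase, went the other way at -0.63 ± 0.05 and -0.61 ± 0.05, as did the tetraspanin Cd9 at -0.68 ± 0.05 and -0.63 ± 0.05. Flna read 9.22, 9.36 and 9.26 with control and 9.95, 9.86 and 9.81 with TBLR1 shRNA in untreated cells, without overlap.

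The next list holds the partners of laminin in the basement membrane. Of its 17 measured genes 8 fell and 1 rose in untreated cells (median -0.05) and 9 fell and 1 rose with isoproterenol (median -0.12). That is 52.9% and 58.8% called, against 37.7% and 41.7% of all genes. Centring on the bacterial controls left 4 and 5 lower, with 2 and 3 higher and medians of 0.02 and -0.01. Col15a1, a collagen that lies beneath basement membranes, fell by 0.38 ± 0.05 and 0.60 ± 0.05, and Col4a5, a network collagen, by 0.36 ± 0.05 and 0.34 ± 0.05. Nid1, the nidogen that ties laminin to collagen, fell by 0.20 ± 0.05 and 0.40 ± 0.05, of which the first was not called with that centring (-0.13, adjusted p = 0.121). Hspg2, the proteoglycan perlecan, fell by 0.32 ± 0.05 and 0.28 ± 0.05, the second moving to -0.17 with that centring (adjusted p = 0.0347). The gene that rose was Agrn, agrin, a proteoglycan that binds laminin. It read 7.69, 7.63 and 7.60 with control and 8.44, 8.48 and 8.50 with TBLR1 shRNA in untreated cells, a rise of 0.83 ± 0.06 (adjusted p = 2.06e-08) that reached 1.00 ± 0.06 with isoproterenol (adjusted p = 1.70e-09).

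Laminin receptors that are not integrins gave 2 rises and 3 falls among 12 measured genes in each comparison. The share called, 41.7% in each, was near the 37.7% and 41.7% of all genes. Sdc4, the syndecan that acts with integrins at focal adhesions, read 9.73, 9.76 and 9.80 with control and 11.06, 10.67 and 10.56 with TBLR1 shRNA in untreated cells. The groups were apart, with differences of 1.00 ± 0.09 (adjusted p = 2.58e-07) and, with isoproterenol, 0.82 ± 0.09 (1.68e-06). Sdc1 rose by 0.22 ± 0.06 and 0.25 ± 0.06. Dag1, dystroglycan, fell by 0.28 ± 0.05 and 0.39 ± 0.05, and Utrn, utrophin, which ties dystroglycan to actin, by 0.27 ± 0.06 and 0.42 ± 0.06.

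Integrin ligands other than laminins moved in both directions, with 7 rises and 11 falls in untreated cells and 8 and 11 with isoproterenol among 37 measured genes. That is 48.6% and 51.4% called, against 37.7% and 41.7% of all genes. As for the basement membrane partners, these shares are not shown to exceed those of genes of similar level. Centring on the bacterial controls changed the counts of rises and falls to 8 and 7, and to 11 and 6. The largest rise was in Thbs1, the matrix protein thrombospondin, at 8.28, 8.38 and 8.05 with control and 10.85, 10.22 and 10.42 with TBLR1 shRNA in untreated cells. It rose 4.79-fold (2.26 ± 0.13, adjusted p = 1.68e-09) and, with isoproterenol, 4.61-fold (2.21 ± 0.13, adjusted p = 1.36e-09). Tnc, tenascin C, rose by 1.28 ± 0.07 and 1.34 ± 0.07, and Ccn2, connective tissue growth factor, by 1.03 ± 0.12 and 1.35 ± 0.12. Ccn3, of the same family, fell by 0.99 ± 0.06 and 1.10 ± 0.06.

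**Figure D4:**
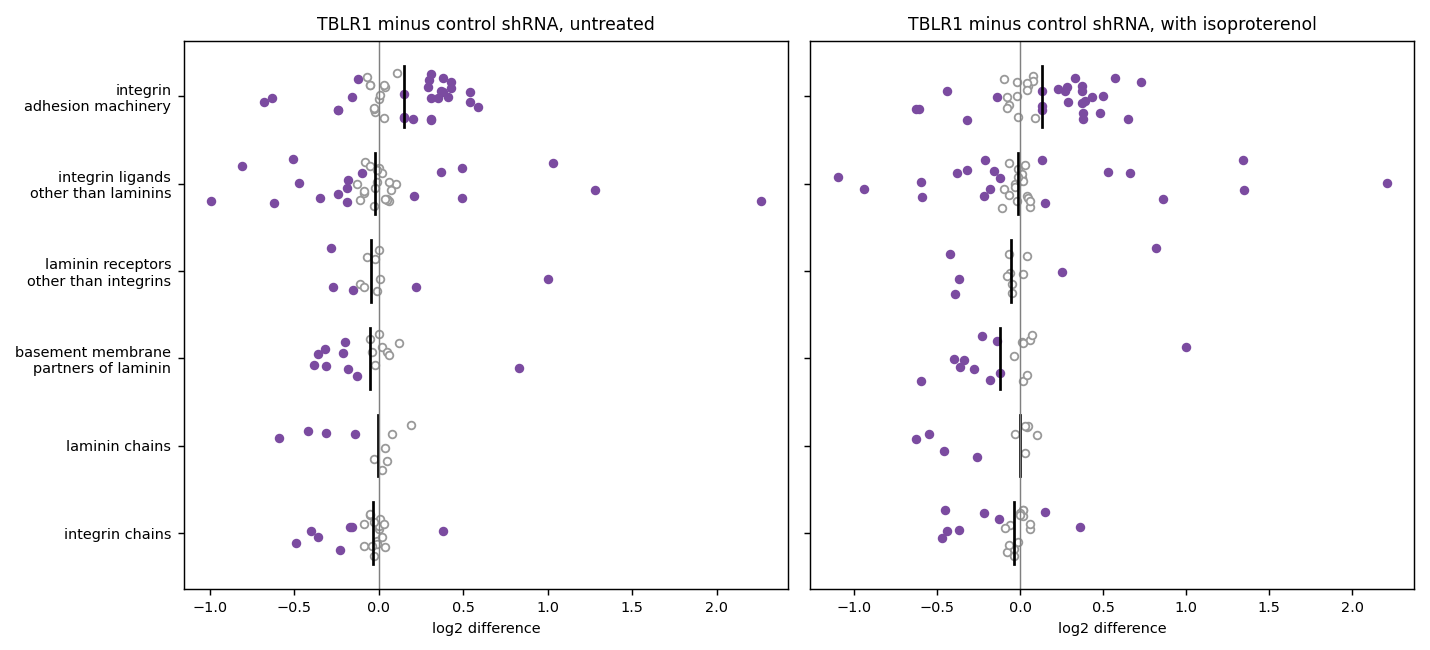
Log2 difference between TBLR1 and control shRNA (horizontal axis) for each gene of 4 lists and of the laminin and integrin chains (vertical axis), in untreated cells (left) and with isoproterenol (right). Each point is a gene with random vertical jitter, filled points are called and black lines are medians. The adhesion machinery has medians of 0.15 and 0.13, and the laminin chains of 0.00 in both.

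The responses of the lists to isoproterenol were counted in the same way. Among all genes 18.6% were called with control shRNA and 8.86% with TBLR1 shRNA. Without the lowest 33% of genes, 1236 rose and 1779 fell of 10178 genes with control shRNA, and 712 rose and 902 fell with TBLR1 shRNA. The lists were not matched to these genes by level. Their shares called were 39.5% and 15.8% for the adhesion machinery and 11.8% and 0.0% for the basement membrane partners. They were 33.3% and 25.0% for the laminin receptors other than integrins and 21.6% and 10.8% for the ligands. In control shRNA cells 8 rises and 7 falls were called in the adhesion machinery (2 and 7 with centring on the bacterial controls), and 6 rises and 0 falls in TBLR1 shRNA cells (3 and 0). Lims2, a relative of Lims1, rose by 0.93 ± 0.06 and 0.42 ± 0.06, and Slc3a2, the integrin-binding heavy chain of amino acid transporters, by 0.65 ± 0.05 and 0.34 ± 0.05. Of the basement membrane partners 2 rose with control shRNA, Nid2 by 0.24 ± 0.05 and Col15a1 by 0.20 ± 0.05, and 0 were called with TBLR1 shRNA (2 higher at an unadjusted p under 0.05). With centring on the bacterial controls 1 of these partners rose and 1 fell with control shRNA, and Col15a1 was not called (0.15, adjusted p = 0.135). Of the 12 laminin receptors other than integrins, 2 rose and 2 fell with control shRNA, and 2 rose and 1 fell with TBLR1 shRNA. With centring on the bacterial controls the counts with TBLR1 shRNA were 2 and 0. The rises were those of Sdc4, by 0.57 ± 0.09 and 0.39 ± 0.09, and Sdc1, by 0.45 ± 0.06 and 0.48 ± 0.06. Among ligands 7 rose and 1 fell with control shRNA (3 and 2 with centring on the bacterial controls) and 4 rose and 0 fell with TBLR1 shRNA, among them Thbs1 by 0.69 ± 0.13 and 0.64 ± 0.13 and Ccn1 by 0.39 ± 0.13 and 0.76 ± 0.13.

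Across all comparisons 16 of the 37 members were called at least once, which is 43.2% against 52.6% of all genes, and 21 never. The 21 differed by at most 0.19 in any comparison of 2 groups, and over the 12 samples their ranges ran from 0.10 to 0.46. Of the 12 members in the lowest 33% of genes 2 were called, Itga8 and Itgb3bp, and the other 10 (Itga2, Itga4, Itga9, Itgam, Itgax, Itgb2, Itgb6, Lama1, Lama3 and Lamc3) were not. For these low members a difference may not have been detectable on the arrays.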

How the data were processed

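The table deposited for the 12 Affymetrix arrays gives a log2 level for each probe set, a scale taken from their range of 5.39 to 14.58. As judged from the values, quantile normalisation preceded deposition, since no 2 arrays of the deposited table differ by more than 0.00781 once sorted. How background was corrected and probes summarised is not given in the sources used here. Of 16553 probe sets, 61 were controls, 15270 had 1 symbol in the platform annotation, which can be old, 0 several, and 1222 none, which stayed unnamed. Where a gene had 2 probe sets (3 genes), that of higher mean was kept, which left 15267 genes.

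Groups came from the labels. A model of 4 group means on all 12 arrays was fitted with limma 3.58.1 (lmFit and eBayes, 8 residual and 7.38 prior degrees of freedom) in R 4.3.3, with 5 contrasts and Benjamini-Hochberg adjustment over all genes; p-values are two-sided, and adjusted p under 0.05 was called. Arrays give no counts, so the number of arrays limits precision; within groups the SD per gene had medians of 0.0486 to 0.0531. The fit was run on simulated data in which 200 genes were changed. The shRNA comparisons called far more genes, so that run does not give the error rates for these data. Figures used matplotlib 3.10.9 in Python 3.11.15.

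The members and lists were chosen with earlier results of these data known. By rule, per-sample values are given for up to 8 called members per comparison whose groups do not overlap, by size of difference, and the list genes named are up to 4 called per list and shRNA comparison and 2 per isoproterenol comparison. Lamc1, Fn1 and the values of overlapping genes were added after values were seen. The alternatives tried were 2 other scalings, trend and robust eBayes, a replicate block, weights per array, a filter removing the lowest 33% of genes, fits of only the groups compared, all probe sets, the mean of several probe sets, and leaving out each sample.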

Additional observations from a re-analysis of the deposited data

Results flagged for a closer look

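Among the 38 measured genes of the adhesion machinery, 4 (10.5%, against 2.4% of all genes) responded differently to isoproterenol under the 2 shRNAs. This was by limma's test of the difference itself, each with 3 samples per group. Of the 37 integrin and laminin members 0 did, and 37 genes are too few to tell 0 from a share of 2.4%. Of the 10178 genes left when those of lowest level were removed, 199 were called higher in this test and 227 lower. The adhesion machinery was not matched to these genes by level. With centring on the bacterial controls 2 of the 4 calls were lost, those of Slc3a2 (-0.27, adjusted p = 0.167) and Kank1 (-0.24, adjusted p = 0.246). Lims2, a partner of integrin-linked kinase, rose less with TBLR1 shRNA, with a difference between responses of -0.51 ± 0.08 (SE, adjusted p = 0.00337). Its mean level was 8.0 with control and 8.43 with TBLR1 shRNA in untreated cells, and 8.93 and 8.85 with isoproterenol. The 2 shRNAs were thus further apart without treatment than with it. Slc3a2, the integrin-binding heavy chain of amino acid transporters, also rose less, with a difference of -0.31 ± 0.07 (adjusted p = 0.0206). Its mean level was likewise higher with TBLR1 shRNA in untreated cells (11.84 against 11.49) and nearly equal with isoproterenol (12.18 against 12.15). The Slc3a2 call was also lost without control untreated replicate 1 (adjusted p = 0.0537) or TBLR1 isoproterenol replicate 3 (0.0549). Tns3, an adaptor that binds integrin tails, was lower after isoproterenol with control shRNA (-0.14 ± 0.05) and higher with TBLR1 shRNA (0.17 ± 0.05), a difference of 0.32 ± 0.06 (adjusted p = 0.015). Kank1, which joins focal adhesions to microtubule attachment sites, rose with control shRNA (0.18 ± 0.04) and differed by -0.10 ± 0.04 with TBLR1 shRNA (adjusted p = 0.147), a difference of -0.28 ± 0.06 (adjusted p = 0.0151).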

How the results depend on the processing

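Of the 21 other settings, none reversed a call of a member. Leaving out 1 sample at a time gave 11 to 14 members called for TBLR1 shRNA in untreated cells (13 with all samples), 14 to 15 with isoproterenol (15), 3 to 4 for isoproterenol with control shRNA (3), 2 to 4 with TBLR1 shRNA (3) and 0 where the responses were set against each other. The other settings gave 11 to 13, 13 to 16, 3, 2 to 3 and 0. Over all genes, leaving out 1 sample gave 5177 to 5844 calls (5756), 5829 to 6373 (6372), 2250 to 2900 (2833), 752 to 1681 (1353) and 198 to 385 (366), in the same order. The lowest of the last 2 ranges came without TBLR1 untreated replicate 3 (752) and without TBLR1 isoproterenol replicate 3 (198); the cause was not tested.

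Same-numbered samples correlated in their deviations from the group means at -0.209 to 0.183 (2 of 18 pairs over 0.1), and different-numbered ones at -0.187 to 0.259 (7 of 36), so the numbers are not taken to pair samples. With a replicate block 5623, 6279, 2723, 1267 and 320 genes were called, and 12 and 15 members for TBLR1 shRNA; Itgal was lost (adjusted p = 0.0617).

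Centring on the bacterial controls also added calls: Lamb3 higher in untreated cells (adjusted p = 0.0116), and Itga9, Itgam, Lama3 and Lamb2 higher with isoproterenol (0.0255, 0.0294, 0.0444 and 0.00518). Itgb2l in untreated cells was called without control replicate 2 (0.0242) or TBLR1 replicate 1 (0.00516). Which scaling is nearer to the RNA content of the cells cannot be told from these arrays, so small differences have no settled size. Low probe sets limit what could be seen for 12 members.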
